A study of Mus musculus with 16 samples.

Results

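The 42 genes described here carry out DNA replication and S phase: they load and fire the replicative helicase, copy the strands, supply nucleotides and rebuild chromatin. They were chosen by name. All 42 were found among the 23362 genes measured on Agilent mouse arrays, each read from its brightest probe, and all 42 were well above background on every array. The 16 arrays measured retinas of C57Bl6 mice, with no genotype other than the strain given. Pups 8 days old received 1 µg of VEGF-A (5 arrays), 4 µg of Dll4-Fc (4 arrays) or 4 µg of hFc (4 arrays) into the vitreous, and retinas were taken 24 h later. VEGF-A is the growth factor that drives retinal vessel growth, Dll4-Fc is the extracellular part of the Notch ligand Dll4 joined to an antibody Fc part, and hFc is the human Fc part alone, the control. A further 3 arrays are of retinas given VEGF Trap, a soluble receptor that binds VEGF-A, for which the labels give neither age nor dose. VEGF-A and its control therefore differ in dose as well as in agent.

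Retina RNA was labelled with Cy3 and hybridised beside a Cy5 pool made of equal RNA amounts from the experiment. Values are log2 of sample over that pool, so 0 is the level of the pool and a difference of 1.00 between groups is a doubling. A member is called when limma's adjusted p over all genes tested is below 0.05. Rod and cone markers (7 of 8), Müller glia markers (7 of 7) and endothelial markers (9 of 9) were measured above background, so the defining cells of the labelled tissue were present in the readout. All hFc arrays shared slide 1 and all Dll4-Fc arrays slide 2. Slides 3 and 4 each held arrays of both VEGF-A and VEGF Trap. In comparisons with hFc or Dll4-Fc, slide and treatment cannot be told apart. The hFc arrays carried 2350 to 2599 outlier spots against 12 to 213 on the others. These were left out, and 7 members lost hFc values by it. Whether samples of a group are separate animals is not given in the labels, and p-values then measure only the spread between these samples, which may be technical.

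Replication starts when the origin recognition complex, with Cdc6 and Cdt1, loads the hexameric MCM helicase onto DNA. In S phase Cdc45 and the GINS complex turn MCM into the moving helicase, polymerases α, δ and ε copy the strands, and the clamp PCNA, loaded by replication factor C, holds polymerases on DNA. E2F transcription factors drive many of these genes at the start of S phase. In the young mouse retina neural progenitors are leaving the cell cycle, while endothelial cells divide in the spreading vessel bed.

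Promoter windows of RefSeq (GRCm38.p6, 250 bases before to 50 after a start) were matched for 35 of the 42 members by symbol, 42 windows in all. The 4 E2F letter strings TTTCCCGC, TTTGGCGC, TTTCGCGC and TTTGCCGC, searched on both strands, occurred in 15 of these 42 windows (35.7%), against 2.26% of all 32851 windows. CCAAT, the letters bound by NF-Y, occurred in 54.8% of member windows and 37.4% of all. TTTGAA, the letters of the cell cycle homology region, occurred in 11.9% and 17.9%. Matches overlap where 2 E2F strings face each other. Among members with a window, E2F letters were found for 8 of the 17 that rose with VEGF-A (47.1%) and for 7 of the 18 that were not called (38.9%). A match is a description of letters, not a site.

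Of the 6 members with the most E2F letters (Mcm6 with 3, and Dnmt1, Mcm3, Mcm5, Mcm7 and Rfc3 with 2 each), those whose upstream bases lie outside annotated genes are shown. They cover 3 subunits that rose with VEGF-A and a clamp loader subunit, Rfc3, that fell with VEGF Trap. Each is written 5′ to 3′ on the gene's strand and ends at or before its start, with E2F letters and CCAAT, or their reverse complements, in capitals.
Mcm6 (chr1:128359706-128359955, minus strand): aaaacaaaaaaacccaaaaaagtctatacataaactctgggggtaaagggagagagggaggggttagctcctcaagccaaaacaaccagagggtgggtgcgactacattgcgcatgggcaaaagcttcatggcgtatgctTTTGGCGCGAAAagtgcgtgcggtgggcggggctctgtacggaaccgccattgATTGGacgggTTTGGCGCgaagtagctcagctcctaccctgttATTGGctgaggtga
Mcm3 (chr1:20820313-20820562, minus strand): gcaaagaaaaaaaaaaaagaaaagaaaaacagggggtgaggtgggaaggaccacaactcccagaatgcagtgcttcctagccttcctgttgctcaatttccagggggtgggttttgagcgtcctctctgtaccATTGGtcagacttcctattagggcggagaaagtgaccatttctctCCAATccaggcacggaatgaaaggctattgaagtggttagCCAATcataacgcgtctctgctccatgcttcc
Mcm5 (chr8:75109259-75109467, plus strand): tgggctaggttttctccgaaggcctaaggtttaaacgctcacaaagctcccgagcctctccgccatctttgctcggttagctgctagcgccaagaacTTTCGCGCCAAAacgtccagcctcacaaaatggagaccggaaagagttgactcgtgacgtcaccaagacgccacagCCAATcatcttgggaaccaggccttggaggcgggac
Rfc3 (chr5:151651209-151651458, minus strand): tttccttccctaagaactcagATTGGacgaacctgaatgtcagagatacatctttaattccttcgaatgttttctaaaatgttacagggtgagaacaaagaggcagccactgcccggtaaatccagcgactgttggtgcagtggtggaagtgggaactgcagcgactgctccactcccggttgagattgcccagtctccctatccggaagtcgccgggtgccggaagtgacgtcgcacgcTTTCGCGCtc
In Mcm6 the E2F letters begin 110, 106 and 47 bases before the start, the first pair overlapping on opposite strands. In Mcm5 they begin 153 and 149 bases before it, again overlapping. In Mcm3 the bases shown hold 3 CCAAT matches and no E2F letters, both of its E2F matches lying after the start. In Rfc3 an E2F match begins 10 bases before the start and another begins at the start.

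With VEGF-A, genes of helicase loading and nucleotide supply rose in the retina. Of the 42 members, 20 rose against hFc and 0 fell (25 higher and 0 lower at an unadjusted p below 0.05), where 5.91% of all 22811 genes rose and 4.3% fell. The median difference of the members was 0.28, against −0.045 for all genes. The VEGF-A arrays lay above the hFc arrays without overlap for 24 members and below them for 0, against 7.63% and 8.42% of all genes. Among the 24, Tyms had 3 hFc arrays and Pold1 2. The rises ran from 0.25 for Orc6 to 2.08 for Uhrf1, and 22 members were not called. In whole retina, more cells of a dividing type and more RNA per cell cannot be told apart.

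**Figure D1:**
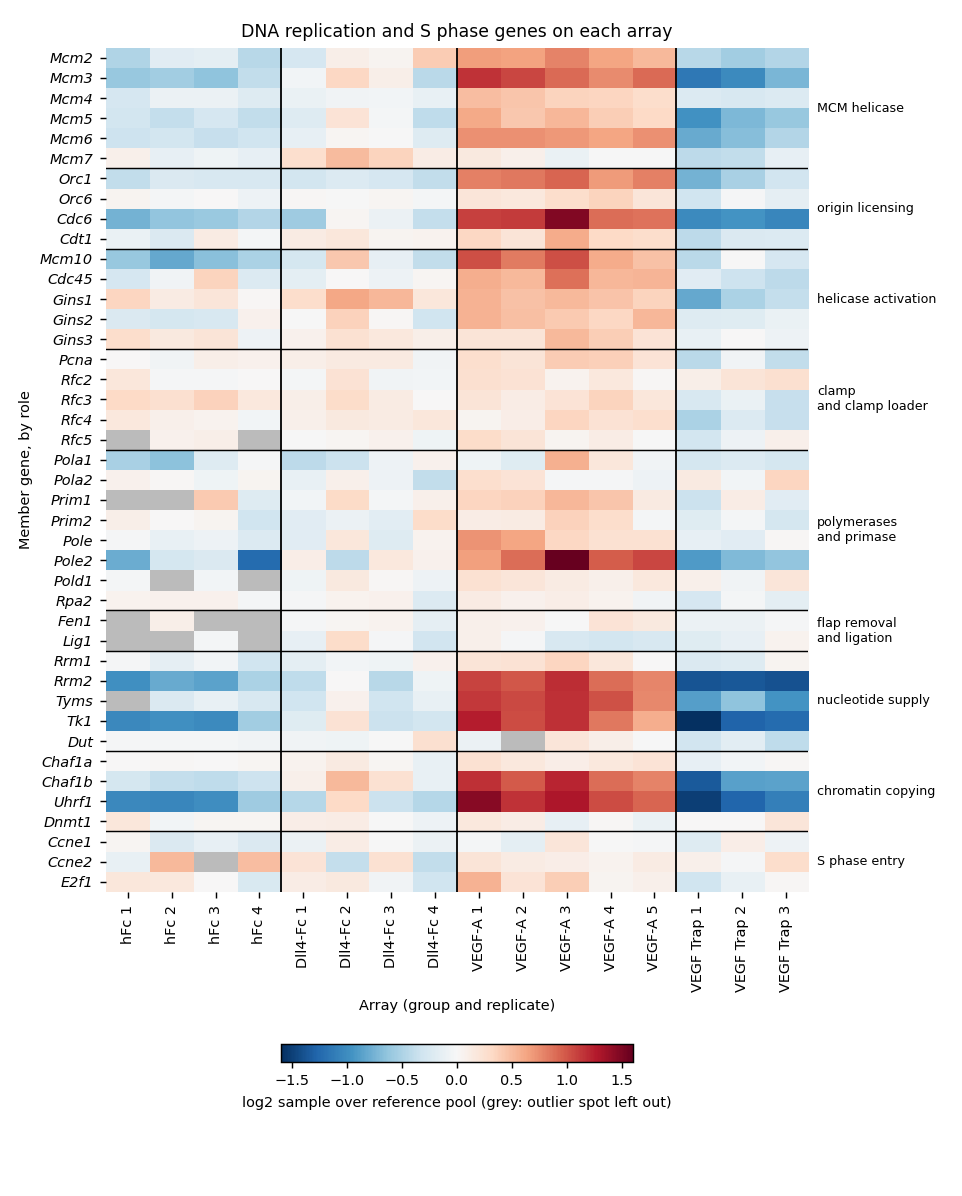
The 42 members (rows, grouped by role) on the 16 arrays (columns), coloured by log2 of sample over reference pool, with spots marked as outliers in grey. Mcm3, Mcm6, Orc1, Cdc6, Rrm2, Tk1, Chaf1b and Uhrf1 are red on all 5 VEGF-A arrays and blue on the 3 VEGF Trap arrays, while clamp loader and S phase entry genes are paler.

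Of the 6 subunits of the MCM helicase, 5 rose. Mcm6 lay at −0.33, −0.29, −0.37 and −0.31 on hFc 1 to 4 and at 0.73, 0.73, 0.70, 0.63 and 0.73 on VEGF-A 1 to 5. Mcm3 lay at −0.61, −0.56, −0.64 and −0.39 on hFc and at 1.15, 1.07, 0.91, 0.76 and 0.91 on VEGF-A. Neither subunit's groups overlapped, and the gap between groups was wider than the range within either. Mcm6 rose 2.04-fold (log2 difference 1.03, standard error 0.072, adjusted p = 8.75e-08), and Mcm3 2.85-fold (log2 difference 1.51, standard error 0.14, adjusted p = 1.49e-06). Mcm2 rose by 0.97 ± 0.12 (log2 difference ± standard error), Mcm5 by 0.79 ± 0.11 and Mcm4 by 0.55 ± 0.061, the latter with a second probe at 0.24 that was not called. The remaining subunit, Mcm7, was not called. It lay at 0.084, −0.13, −0.067 and −0.13 on hFc and 0.16, 0.086, −0.11, −0.0032 and −0.011 on VEGF-A, the groups overlapping, with a difference of 0.085 ± 0.091 (adjusted p = 0.624).

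All 4 licensing factors among the members rose. Orc1, the ATPase subunit of the origin recognition complex, lay at −0.39, −0.23, −0.25 and −0.26 on hFc and 0.80, 0.84, 0.93, 0.68 and 0.81 on VEGF-A. Cdc6, the ATPase that joins Orc1 to load MCM, lay at −0.75, −0.64, −0.59 and −0.47 and 1.09, 1.12, 1.48, 0.90 and 0.87. In both genes every VEGF-A array was above every hFc array, with VEGF-A 3 the highest. Orc1 rose 2.14-fold (log2 difference 1.09, standard error 0.084, adjusted p = 2.55e-07) and Cdc6 3.26-fold (log2 difference 1.71, standard error 0.13, adjusted p = 3.02e-07). With normexp and loess in place of the scanner's log ratio, the difference of Orc1 was 0.52 (adjusted p = 3.69e-06). Cdt1, which brings MCM to the origin, rose by 0.41 ± 0.089 (adjusted p = 0.0077). Orc6, the smallest origin recognition subunit, rose by 0.25 ± 0.066 (adjusted p = 0.0244), a call lost in 6 of 22 alternative settings.

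Of the 5 factors that turn the loaded MCM into an active helicase, 3 rose. Mcm10, needed to start unwinding, lay at −0.61, −0.82, −0.66 and −0.51 on hFc and 1.03, 0.84, 1.03, 0.60 and 0.47 on VEGF-A. It rose 2.72-fold (log2 difference 1.44, standard error 0.17, adjusted p = 2.16e-05). Cdc45, part of the moving helicase, rose by 0.65 ± 0.12 (adjusted p = 0.00168), though hFc 3 at 0.36 stood well above the other hFc arrays. Gins2, a GINS subunit, lay at −0.23, −0.28, −0.26 and 0.072 on hFc and 0.55, 0.48, 0.42, 0.34 and 0.53 on VEGF-A. It rose by 0.64 ± 0.11 (adjusted p = 0.00158) on its brightest probe, while its other probe gave −0.29 and was not called, and the mean of both gave 0.17 (adjusted p = 0.266). The other GINS subunits among the members were not called, at 0.30 ± 0.11 for Gins1 (adjusted p = 0.0967) and 0.17 ± 0.087 for Gins3 (adjusted p = 0.248).

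None of the 5 measured clamp and clamp loader genes was called (1 higher and 0 lower at an unadjusted p below 0.05). Pcna, the sliding clamp itself, lay at 0.012, −0.061, 0.092 and 0.073 on hFc and 0.27, 0.20, 0.40, 0.38 and 0.22 on VEGF-A. Its groups did not overlap, yet its difference of 0.27 ± 0.083 missed the threshold (adjusted p = 0.057) and passed it in 5 of 23 alternative settings. Subunits of replication factor C gave 0.11 ± 0.079 for Rfc2, −0.064 ± 0.077 for Rfc3 and 0.13 ± 0.077 for Rfc4. Rfc5, measured on only 2 hFc arrays, gave 0.049 ± 0.11. Their adjusted p-values were 0.325 to 0.83.

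Of 8 polymerase, primase and single-strand binding genes, the 2 that rose both encode polymerase ε. Pole2, its accessory subunit, lay at −0.79, −0.29, −0.23 and −1.23 on hFc and 0.66, 0.90, 1.64, 0.96 and 1.07 on VEGF-A. Pole, its catalytic subunit, lay at −0.016, −0.12, −0.078 and −0.22 and 0.71, 0.63, 0.33, 0.24 and 0.24. Both were higher on every VEGF-A array, with the spread of Pole2 the widest in hFc and that of Pole split by slide, as VEGF-A 1 and 2 lay on slide 3. Pole2 rose 3.21-fold (log2 difference 1.68, standard error 0.22, adjusted p = 8.11e-05) and Pole 1.45-fold (log2 difference 0.54, standard error 0.11, adjusted p = 0.00546). The size for Pole2 depended on the processing, at 0.50 (adjusted p = 0.000308) with normexp and loess and 1.01 (adjusted p = 0.0422) in the deposited value table. Polymerase α was not called: its catalytic subunit Pola1 gave 0.44 ± 0.16, its second subunit Pola2 0.055 ± 0.11, and the primase subunits Prim1, measured on 2 hFc arrays, and Prim2 0.26 ± 0.17 and 0.22 ± 0.12. Pold1, the catalytic subunit of polymerase δ, measured on 2 hFc arrays, gave 0.20 ± 0.090. Rpa2, a subunit of the single-strand binding protein, gave 0.020 ± 0.074. The adjusted p-values of these 6 were 0.108 to 0.907. Fen1, which trims Okazaki fragments, and Lig1, which joins them, had a single hFc array left each and gave 0.013 ± 0.11 and −0.12 ± 0.21, so these 2 values rest on the spread of the other groups.

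Nucleotide supply genes gave some of the largest rises, 4 of 5 being called. Rrm2, the regulated subunit of ribonucleotide reductase, lay at −0.99, −0.80, −0.85 and −0.50 on hFc and 1.09, 1.00, 1.18, 0.90 and 0.78 on VEGF-A. Tk1, the thymidine salvage kinase, lay at −1.03, −0.98, −1.01 and −0.56 and 1.26, 1.04, 1.17, 0.84 and 0.58. Tyms, thymidylate synthase, lay at −0.23, −0.11 and −0.26 on hFc 2 to 4, hFc 1 being left out, and at 1.13, 1.05, 1.17, 1.02 and 0.77 on VEGF-A. In each of these 3 genes all VEGF-A arrays stood above the pool and all hFc arrays below it. Rrm2 rose 3.42-fold (log2 difference 1.77, standard error 0.12, adjusted p = 5.08e-08), Tk1 3.66-fold (log2 difference 1.87, standard error 0.16, adjusted p = 8.09e-07) and Tyms 2.34-fold (log2 difference 1.23, standard error 0.11, adjusted p = 3.81e-06). A further 2 Tyms probes gave 1.26 and 1.37, both called, and a probe with another accession gave 0.060 and was not called. Rrm1, the constant partner of Rrm2, rose by 0.33 ± 0.088 (adjusted p = 0.0284), a call lost in 10 of 23 alternative settings. Dut, which removes dUTP, lacked VEGF-A 2 and gave 0.079 ± 0.088 (adjusted p = 0.645).

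Of 4 genes that copy chromatin and its methylation, 2 rose. Uhrf1, which reads half-methylated DNA behind the fork, lay at −1.04, −1.04, −0.99 and −0.57 on hFc and 1.46, 1.16, 1.29, 1.04 and 0.93 on VEGF-A. Chaf1b, a subunit of the histone chaperone CAF-1, lay at −0.28, −0.38, −0.40 and −0.33 and 1.17, 0.99, 1.22, 0.90 and 0.80. Groups did not overlap in either gene. Uhrf1 rose 4.24-fold (log2 difference 2.08, standard error 0.17, adjusted p = 4.2e-07), the largest of the 42 differences, and Chaf1b 2.57-fold (log2 difference 1.36, standard error 0.13, adjusted p = 4.14e-06). Their partners gave −0.038 ± 0.082 for Dnmt1, the maintenance methyltransferase that Uhrf1 recruits, and 0.17 ± 0.061 for Chaf1a, the large CAF-1 subunit (adjusted p = 0.828 and 0.0988). Of the 3 genes of S phase entry none was called (0 at an unadjusted p below 0.05). E2f1, an activating E2F, gave 0.23 ± 0.13, cyclin E1 (Ccne1) 0.14 ± 0.088, and cyclin E2 (Ccne2, 3 hFc arrays) −0.17 ± 0.17, with adjusted p-values of 0.312 to 0.611.

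**Figure D2:**
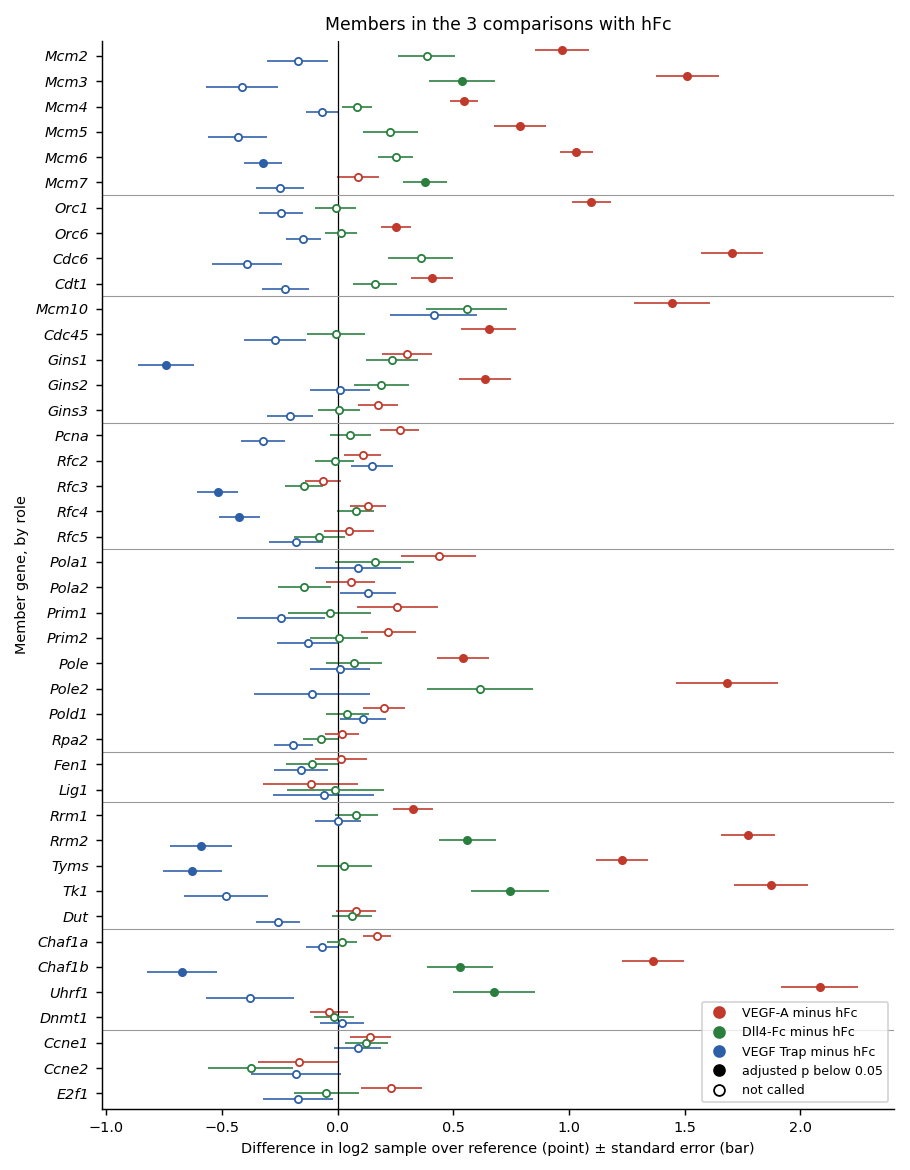
Differences in log2 sample over reference of each treatment from hFc (points) with standard errors (bars) for the 42 members, filled where the adjusted p was below 0.05. VEGF-A points reach 2.08 for Uhrf1, the 6 called Dll4-Fc points are all to the right of 0, and the 7 called VEGF Trap points are all to its left.

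With Dll4-Fc fewer members were called. Against hFc, 6 members rose and 0 fell (11 higher and 0 lower at an unadjusted p below 0.05), where 3.07% of all genes rose and 1.54% fell. The median of the members was 0.066, against −0.016 for all genes. Arrays stood apart for 7 members upward and 2 downward, against 6.13% and 5.63% of all genes. The 2 downward were Rfc5, with 2 hFc arrays, and Fen1, with 1, neither called. Rrm2 lay at −0.40, 0.0047, −0.44 and −0.073 on Dll4-Fc 1 to 4, and rose 1.47-fold (log2 difference 0.56, standard error 0.12, adjusted p = 0.0144). Tk1 lay at −0.19, 0.23, −0.34 and −0.29, and rose 1.68-fold (log2 difference 0.74, standard error 0.17, adjusted p = 0.0165). Mcm7 lay at 0.27, 0.51, 0.36 and 0.12, and rose 1.298-fold (log2 difference 0.38, standard error 0.096, adjusted p = 0.0348). All Dll4-Fc arrays were above all hFc arrays in these 3 genes. With normexp and loess, Rrm2 gave 0.30 and was not called (adjusted p = 0.208). Uhrf1 lay at −0.46, 0.32, −0.34 and −0.46, with Dll4-Fc 2 far above the other three. Uhrf1 (0.67 ± 0.18), Mcm3 (0.54 ± 0.14) and Chaf1b (0.53 ± 0.14) were called with adjusted p-values of 0.0415, 0.0474 and 0.0476. Over the alternatives the difference of Uhrf1 ranged from 0.44 to 0.79. Mcm7 was the only called member here that was not called with VEGF-A. Orc1, with −0.29, −0.22, −0.26 and −0.39 on Dll4-Fc, did not differ beyond its spread (−0.0090 ± 0.089).

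The Dll4-Fc calls rested on few arrays. Dll4-Fc 2 was the highest of its group in 27 of 42 members, and without it 0 members were called (11 at an unadjusted p below 0.05). The count was 2 without Dll4-Fc 3, 1 without hFc 1, hFc 2 or hFc 3 in turn, and 3 without hFc 4.

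With VEGF Trap the called members were lower. Against hFc, 0 members rose and 7 fell (1 higher and 17 lower at an unadjusted p below 0.05), where 1.3% of all genes rose and 2.45% fell. The median was −0.19, against −0.025 for all genes. Arrays stood apart for 14 members downward and 1 upward, against 13.9% and 11.6% of all genes. Among the 14, Fen1 had 1 hFc array and Tyms 3. Gins1 lay at 0.34, 0.13, 0.20 and 0.018 on hFc and at −0.82, −0.50 and −0.39 on VEGF Trap 1 to 3. Rfc3 lay at 0.32, 0.26, 0.36 and 0.17 and −0.25, −0.10 and −0.37. Rfc4 lay at 0.16, 0.076, 0.058 and −0.039 and −0.50, −0.21 and −0.37. In all 3 genes the hFc values were near or above the pool and the VEGF Trap values below it, without overlap. Gins1 fell 1.67-fold (log2 difference −0.74, standard error 0.12, adjusted p = 0.00507), Rfc3 1.43-fold (log2 difference −0.52, standard error 0.088, adjusted p = 0.00594) and Rfc4 1.34-fold (log2 difference −0.43, standard error 0.088, adjusted p = 0.0187). These 3 genes were not called with VEGF-A. The other four that fell had risen with VEGF-A: Chaf1b (−0.67 ± 0.15), Tyms (−0.63 ± 0.13, 3 hFc arrays), Rrm2 (−0.59 ± 0.13) and Mcm6 (−0.32 ± 0.082), with adjusted p-values of 0.0187 to 0.0426. Over the alternatives Tyms ranged from −0.75 to −0.37 and Mcm6 from −0.42 to −0.14. Mcm10 stood out at −0.44, −0.0067 and −0.27, above all hFc arrays, with a difference of 0.41 ± 0.19 that was not called (adjusted p = 0.222).

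VEGF Trap had 3 arrays, and its count depended on single ones. VEGF Trap 1 was the lowest of its group in 27 of 42 members, and without it 2 members were called. The count was 4 without VEGF Trap 3, 3 without hFc 2 or hFc 3, and 4 without hFc 4. All 3 comparisons with hFc share its 4 arrays, so their values are side by side and not independent. Across them, 2 members (Rrm2 and Chaf1b) were called in every comparison, 13 with VEGF-A alone, and 18 in none.

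VEGF-A against VEGF Trap is the comparison whose groups shared slides. Here 29 members were higher with VEGF-A and 0 lower (34 and 0 at an unadjusted p below 0.05), where 10.6% of all 23362 genes were higher and 8.69% lower. The median was 0.52, against −0.032 for all genes. Arrays stood apart for 32 members upward and 0 downward, against 12.7% and 12.6% of all genes. With slide as a block, 23 members were called, with 25 on slide 3 alone (2 arrays against 2) and 21 on slide 4 alone (3 against 1). The slide 4 count has a single VEGF Trap array, which is assumed to vary like the other groups. Rrm2 lay at −1.38, −1.36 and −1.39 on VEGF Trap and was 5.15-fold higher with VEGF-A (log2 difference 2.36, standard error 0.13, adjusted p = 3.7e-09). Mcm6 lay at −0.81, −0.68 and −0.46 and was 2.56-fold higher (log2 difference 1.35, standard error 0.078, adjusted p = 7.76e-09). Tyms lay at −0.88, −0.65 and −0.95 and was 3.62-fold higher (log2 difference 1.86, standard error 0.11, adjusted p = 3.85e-08). These groups did not overlap, nor did those of any called member other than Rrm1. The second Gins2 probe was lower with VEGF-A here (−0.42, adjusted p = 0.0334 in a fit of all probes), against 0.63 ± 0.12 on the brightest probe, so the direction of Gins2 depended on the probe.

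By role, VEGF-A was above VEGF Trap for all 6 MCM subunits, all 4 licensing factors, all 5 helicase activators and all 5 nucleotide supply genes. Pcna (0.59 ± 0.091), Rfc3 (0.46 ± 0.084) and Rfc4 (0.56 ± 0.084) were called as well. The 13 members not called included Fen1, Lig1, Dnmt1, Pold1, Rpa2, both polymerase α subunits and the 3 genes of S phase entry. Their differences ran from −0.074 for Pola2 to 0.40 for E2f1 (adjusted p = 0.0658). A second E2f1 probe gave 0.39 and was called (adjusted p = 0.00542 in a fit of all probes). E2f1 was also called in 4 alternative settings, so its lack of a call depended on probe and processing. Mcm7, Gins3, Prim1, Rrm1, Dut and Chaf1a, called here, were not called with slide as a block. The call of Dut was kept in 13 of 23 alternative settings, and its other probe gave 0.0051 and was not called.

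**Figure D3:**
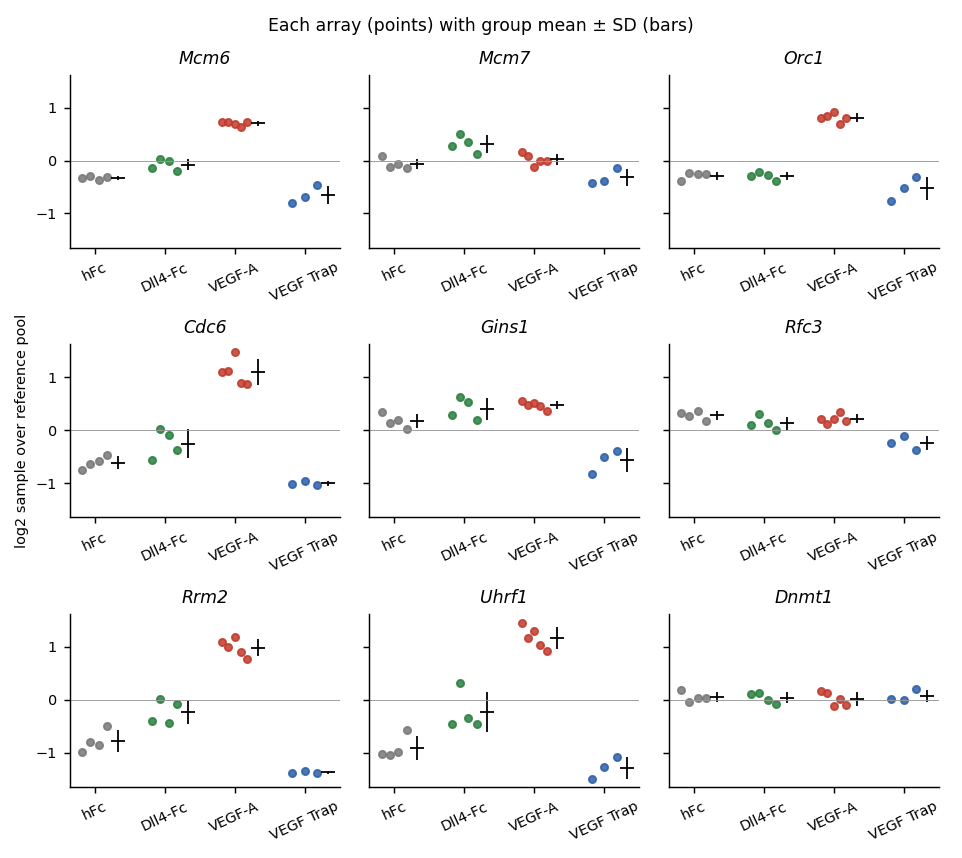
Log2 sample over reference pool of 9 members on each array (points) with the group mean ± SD (bars). Rrm2, Uhrf1, Cdc6, Orc1 and Mcm6 are highest on all VEGF-A arrays, Mcm7 is highest on Dll4-Fc arrays 1 to 3, Gins1 and Rfc3 are lowest on VEGF Trap, and Dnmt1 runs from −0.13 to 0.20 over all arrays.

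Dll4-Fc against VEGF-A placed 18 members lower and 1 higher with Dll4-Fc (22 and 1 at an unadjusted p below 0.05), where 6.93% of all genes were lower and 6.39% higher. Arrays stood apart for 19 members downward and 0 upward, against 7.38% and 7.02% of all genes. Orc1 was 2.15-fold lower (log2 difference −1.10, standard error 0.084, adjusted p = 2.35e-07), Mcm6 1.72-fold lower (log2 difference −0.78, standard error 0.072, adjusted p = 1.59e-06) and Tyms 2.3-fold lower (log2 difference −1.20, standard error 0.10, adjusted p = 1.63e-06). Mcm6 lay at −0.13, 0.027, −0.0050 and −0.20 on Dll4-Fc and Tyms at −0.32, 0.064, −0.32 and −0.12, all below every VEGF-A array. With normexp and loess, Orc1 gave −0.61. The member that was higher was Mcm7 (0.29 ± 0.091, adjusted p = 0.0476), with overlapping arrays and a call lost in 10 of 23 alternative settings. The other five subunits of its helicase were all called lower with Dll4-Fc, from −0.97 for Mcm3 to −0.46 for Mcm4, though Mcm4 was not called on the mean of its probes. Doses differed between these groups, and they shared no slide.

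Other cell cycle genes were read from lists chosen with earlier results of these data known. With VEGF-A 5.91% of all genes rose and 4.3% fell, with a median of −0.045. Of 36 further replication genes tested, 5 rose with VEGF-A and 0 fell, with a median of 0.019. They included Asf1b, a histone chaperone (0.73 ± 0.080), Ticrr, an origin firing factor (0.74 ± 0.099), and Dbf4, the activator of the Cdc7 kinase (0.71 ± 0.11). Of 17 replication stress and repair genes 9 rose and 0 fell, with a median of 0.39. Those with the smallest p were Atad2 (1.297 ± 0.097), Exo1, a nuclease (1.91 ± 0.15), and Rad54l, a recombination factor (0.66 ± 0.10). Of 18 nucleotide synthesis genes 4 rose and 0 fell, with a median of 0.15, among them Mthfd2 (0.72 ± 0.10), Atic (0.47 ± 0.069) and Dctd (0.72 ± 0.11). Of 19 regulators of G1 phase 10 rose and 0 fell, among them Myc (1.44 ± 0.099), E2f7 (1.396 ± 0.11) and Ccnd2 (2.38 ± 0.25). Of 23 mitosis genes 22 rose and 0 fell, with a median of 1.52. Those with the smallest p were Ube2c (2.64 ± 0.096), Cdc20 (1.68 ± 0.079) and Kif20a (1.56 ± 0.076). Of 6 Cdk inhibitors Cdkn2b rose (2.51 ± 0.14) and Cdkn1c fell (−0.75 ± 0.16).

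In the other comparisons with hFc fewer genes of these lists were called, as was so over all genes. Of all genes 3.07% rose and 1.54% fell with Dll4-Fc, and 1.3% rose and 2.45% fell with VEGF Trap. With Dll4-Fc, 9 of 23 mitosis genes rose, among them Nusap1 (0.59 ± 0.083) and Kif20a (0.52 ± 0.080), while 0 of 36 further replication genes were called (1 higher and 2 lower at an unadjusted p below 0.05). Myc (0.91 ± 0.10) and Tfdp2 (0.57 ± 0.11) rose, as did the Cdk inhibitors Cdkn1c (1.305 ± 0.17) and Cdkn2b (0.65 ± 0.15). With VEGF Trap, 8 of 23 mitosis genes fell, among them Ttk (−0.94 ± 0.12) and Bub1 (−0.88 ± 0.13). Genes of other lists that fell with it included Cdk4 (−0.53 ± 0.083), Dscc1 (−0.72 ± 0.16), Umps (−0.49 ± 0.11) and Exo1 (−0.77 ± 0.17).

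Of 9 endothelial markers, 6 rose with VEGF-A and 1 fell, where 5.91% and 4.3% of all genes did. With VEGF Trap 8 of them fell, against 2.45% of all genes. All list means per array are over the genes of a list with a value on every array, so some markers are left out. The endothelial mean was −0.24 to −0.055 on hFc and −0.18 to 0.038 on Dll4-Fc. On VEGF-A it was 0.39 to 0.48, and on VEGF Trap −0.75 to −0.67. The group means came in the same order as for the median of the members, with hFc and Dll4-Fc ranges overlapping in both. That median was −0.21 to −0.027, −0.084 to 0.13, 0.22 to 0.40 and −0.31 to −0.19 on the same groups. Of 3 red cell markers 3 rose with VEGF-A, with 0 of 3 called with Dll4-Fc (1 higher at an unadjusted p below 0.05) or VEGF Trap (1 lower). Their mean per array, over Alas2 and Hba-a1 alone, was −1.38 to −0.39 on hFc and −0.88 to 0.062 on Dll4-Fc. It was −0.0082 to 1.37 on VEGF-A and −2.05 to −1.31 on VEGF Trap. With Dll4-Fc, 5 of 6 microglia markers rose and 1 fell, and 5 of 7 Müller glia markers fell, while of 9 endothelial markers 1 rose. Among all genes 3.07% rose and 1.54% fell with Dll4-Fc. Müller glia means were −0.96 to −0.27 on Dll4-Fc, 0.050 to 0.12 on hFc, −0.33 to 0.020 on VEGF-A and 0.024 to 0.30 on VEGF Trap. Of 4 astrocyte markers only Gfap was called, higher with VEGF-A (2.36 ± 0.15) and with Dll4-Fc (1.13 ± 0.16). Astrocyte means were −0.29 to −0.11 on hFc, −0.16 to 0.19 on Dll4-Fc, 0.15 to 0.43 on VEGF-A and −0.34 to −0.16 on VEGF Trap. For red cells and astrocytes too, group means ran from high to low as VEGF-A, Dll4-Fc, hFc and VEGF Trap, as for the members. The median astrocyte marker did not follow this order. Its difference from hFc was −0.054 with VEGF-A, 0.046 with Dll4-Fc and 0.0096 with VEGF Trap. Of 6 pericyte markers Cspg4 rose with VEGF-A (1.61 ± 0.11), while Kcnj8 (−2.13 ± 0.15) and Abcc9 (−0.82 ± 0.11) fell. Pericyte means were 0.046 to 0.14 on hFc, −0.12 to 0.098 on Dll4-Fc, −0.21 to 0.030 on VEGF-A and −0.40 to −0.22 on VEGF Trap. Microglia marker means were 0.30 to 0.77 on Dll4-Fc and −0.57 to −0.21 on all other arrays. Dll4-Fc 2, the array highest in most members, had the lowest microglia mean of its group, 0.30. It was at an extreme of its group in other lists as well. Its red cell (−0.88) and astrocyte (−0.16) means were the lowest and its retinal progenitor mean (0.18) the highest. Ganglion cell marker means were −0.91 and −0.86 on VEGF-A 1 and 2 and 0.020 to 0.11 on VEGF-A 3 to 5. VEGF-A 1 and 2 lay on slide 3, where the VEGF Trap arrays were at 0.19 and 0.15. Members called with VEGF-A numbered 17 with only the slide 3 arrays and 19 with only the slide 4 arrays. Of all genes, 13.9% and 8.37% were called in these fits, against 10.2% in the main fit. The part of any of these cell types in the members' values was not tested.

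**Figure D4:**
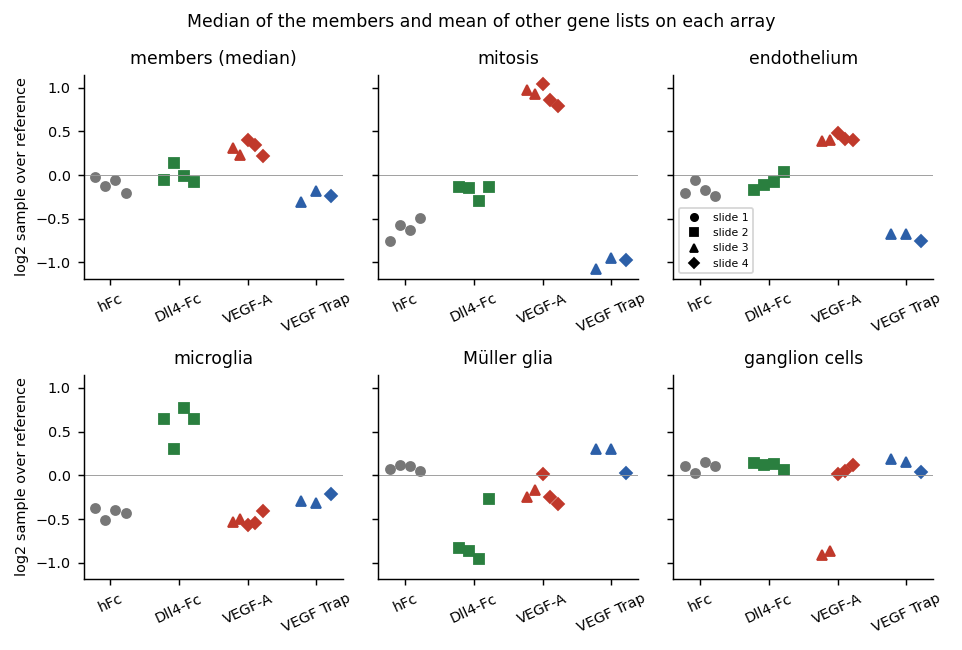
Median of the members and mean of 5 gene lists on each array, as log2 of sample over reference pool, with the slide given by the symbol. List means are over genes with a value on every array. The members, mitosis and endothelial panels share the order VEGF-A highest and VEGF Trap lowest, while microglia means are high on Dll4-Fc alone and ganglion cell means are low on the 2 VEGF-A arrays of slide 3.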

How the data were processed

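Retinas were hybridised on 16 Agilent arrays of 2 colours, sample in Cy3 and pooled reference in Cy5, per the labels. Per the file headers, Feature Extraction 9.5.1.1 gave each spot an intensity per channel and a log10 LogRatio of Cy5 over Cy3 after background subtraction and LOWESS dye normalization. Natural log ratios in the deposited value table served only as an alternative. Flags for outlier spots and for spots well above background came from the scanner software, per the file headers.

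LogRatio was turned to log2 of sample over reference. Outlier spots were left out, spots of a probe averaged, and probes with 3 or more arrays well above background in the Cy3 channel kept (39788 of 43426). Genes took their brightest probe. A single limma 3.58.1 fit (R 4.3.3) of 4 groups over 16 arrays, with 12 residual and 2.32 prior degrees of freedom, was tested 2-sided in 5 comparisons, with Benjamini-Hochberg adjustment over all genes (22811 with hFc, 23362 without). Of the genes kept, 551 had no hFc value. The number of arrays limits the precision, and the median standard error of a gene was 0.13. The method was tested on simulated arrays. Members, lists and tests were chosen with earlier results of these data known. Named members were the 2 with the smallest p of each role in VEGF-A vs hFc, up to 3 called in each other comparison, and all not called in VEGF-A vs hFc. Further called members were named after their values were seen. Of companion and marker lists, up to 3 called genes per list were named for VEGF-A and up to 2 for the others. Promoter letters were searched with Python 3.11.15 in RefSeq windows.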

Additional observations from a re-analysis of the deposited data

Results flagged for a closer look

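In 7 of 122 groups of 4 or 5 arrays examined, a single array stood far from the others, measured as its gap to the nearest array over the range of the group. Chance alone gives about 1 in 20 such groups. On hFc 4, Tk1 was at −0.56 against −1.03 to −0.98 on the other hFc arrays (gap 0.905 of the range), Uhrf1 was at −0.57 against −1.04 to −0.99 (0.895), and Gins2 was at 0.072 against −0.28 to −0.23 (0.859). On hFc 1, Rfc2 was at 0.18 against −0.016 to 0.0034 (0.903). On Dll4-Fc 2, Rfc2 was at 0.23 against −0.052 to −0.036 (0.943) and Uhrf1 at 0.32 against −0.46 to −0.34 (0.844). On VEGF-A 3, Cdc45 was at 0.88 against 0.52 to 0.58 (0.826). The calls of Tk1 and Uhrf1 with VEGF-A held without hFc 4.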

How the results depend on the processing

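Of 20 members called with VEGF-A against hFc, 15 were called in every alternative that gave them a value, as were 18 of 29 in VEGF-A against VEGF Trap and 13 of 19 in Dll4-Fc against VEGF-A. A member had a value in 22 or 23 alternatives in these comparisons. None of the 6 Dll4-Fc or 7 VEGF Trap calls against hFc held in every alternative, and no call of a named member reversed direction. With VEGF-A against hFc 17 to 23 members were called over all alternatives. For Dll4-Fc against hFc the count of 6 became 3 with normexp and loess, 3 with Cy3 alone, 1 with hFc 1 and hFc 2 averaged (their titles share a code) and 1 with only the arrays of these groups. For VEGF Trap against hFc the count of 7 became 3 with Cy3 alone, 3 with only the arrays of these groups, 4 with the VEGF Trap arrays of slide 3 and 1 with that of slide 4. The cause of these moves was not tested. Leaving out each array in turn gave counts of 18 to 20 for VEGF-A, 0 to 6 for Dll4-Fc and 2 to 6 for VEGF Trap against hFc, 23 to 29 for VEGF-A against VEGF Trap and 17 to 19 for Dll4-Fc against VEGF-A. With the band of rows that held most outlier spots left out, 32 members remained, and their medians were 0.54 for VEGF-A against hFc, 0.62 for VEGF-A against VEGF Trap and −0.45 for Dll4-Fc against VEGF-A, over fewer members. Slide as a random block changed no count. The estimated correlation within slides was −0.0018, so that fit was nearly the main one. It cannot separate slide from treatment in comparisons with hFc or Dll4-Fc, whose arrays each lay on a slide of their own. No paired analysis was possible because replicate numbers here follow the order of deposit. The titles of VEGF-A 4 and VEGF Trap 3 share a code of unstated meaning, a single shared code between compared groups, too few for a block. Precision was limited by 3 to 5 arrays a group.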
